A study of Mus musculus with 3 samples.

Results

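GLI3 peaks at divergent bidirectional promoters were examined in forelimb buds of mouse embryos. A divergent promoter was a pair of protein-coding genes on opposite strands, transcribed away from each other, with transcription start sites (TSSs) at most 1 kb apart by the GENCODE M21 gene records on mm10. A peak belonged to such a promoter when its summit lay within 1 kb of both TSSs. This held for 486 of the 16854 listed peaks on autosomes, out of 17149 listed in all. They were compared with 5811 peaks whose summit lay within 1 kb of the TSS of a single protein-coding gene, called single-promoter peaks here.

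The peaks came from ChIP-seq, in which DNA bound by a protein is recovered with an antibody and sequenced. There were 2 ChIP libraries and 1 input library, each labelled as 2 litters of E10.5 forelimb buds at 32 to 35 somites on a mixed strain background. The genotype label reads wild type, while the series text describes an endogenous Gli3 allele carrying a FLAG tag. Buds were pooled and dissociated with Liberase before fixation, so the peaks are an average over all cell types of the bud. The list was treated as a joint call from both ChIP libraries, following the study's methods, and has no value per library, so no value below has a replicate error and no comparison has a p-value. Intervals are 95% intervals for counting error over peaks, genes or pairs, which are not independent replicates. A list of peaks holds no expression values, so the labelled tissue could not be checked against marker genes.

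GLI3 is a zinc finger transcription factor of the Hedgehog (HH) pathway, which without HH ligand is cut into a truncated repressor, and in the limb bud it restricts HH target genes along the anterior-posterior axis. In a divergent promoter, genes that point away from each other share one short stretch of DNA from which both are transcribed. Such promoters are typically rich in CpG, often lack a TATA box, and are common among housekeeping genes for DNA repair, mitochondria, translation and protein folding. The stretch between the TSSs is called the gap below, and pairs are written with the minus-strand gene first.

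Gap sequences are shown as examples of pairs with and without a listed peak, chosen after the sequences were seen, and no comparison rests on them. The first set belongs to pairs with a listed peak, of which the leading 5 were among the 12 best-ranked peaks at divergent promoters and the last is a textbook divergent promoter. Each sequence is the plus strand of mm10, 5′ to 3′, and lies between the first bases of both gene records. Capitals mark any match on either strand to a motif searched here, of which GLI allowed 1 mismatch and the others none. The letters of the GLI motif were GACCACCCA. For ETS factors, activators with a conserved winged helix domain, they were CCGGAAG. For NRF1, a regulator of mitochondrial and housekeeping genes, they were GCGCATGCG. For SP factors, which bind GC boxes, they were GGGCGG. For the trimeric CCAAT-binding factor NFY, they were CCAAT. For YY1, a zinc finger factor, they were AAGATGGCG. The cAMP response element (CRE) was read as TGACGTCA. The E-box was read as CACGTG. The TATA box was read as TATAAA.
Pdap1/Bud31, chr5:145140239-145140361: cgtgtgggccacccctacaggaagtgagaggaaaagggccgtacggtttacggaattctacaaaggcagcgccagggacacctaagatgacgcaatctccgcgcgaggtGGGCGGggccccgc
Mtrr/Fastkd3, chr13:68582150-68582233: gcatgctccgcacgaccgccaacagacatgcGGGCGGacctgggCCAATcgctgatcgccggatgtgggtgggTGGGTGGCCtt
Xrcc3/Zfyve21, chr12:111813874-111814169: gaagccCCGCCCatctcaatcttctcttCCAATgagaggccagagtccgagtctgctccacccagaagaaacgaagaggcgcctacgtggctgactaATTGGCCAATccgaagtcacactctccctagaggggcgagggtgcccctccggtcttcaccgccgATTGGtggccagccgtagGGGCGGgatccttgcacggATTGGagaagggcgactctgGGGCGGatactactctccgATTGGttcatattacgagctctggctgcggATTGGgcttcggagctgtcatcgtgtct
Hspa14/Cdnf, chr2:3512815-3513029: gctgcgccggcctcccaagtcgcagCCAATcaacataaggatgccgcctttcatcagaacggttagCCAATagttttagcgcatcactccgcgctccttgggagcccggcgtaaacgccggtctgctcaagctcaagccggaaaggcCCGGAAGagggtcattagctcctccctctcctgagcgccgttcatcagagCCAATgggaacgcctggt
Ndufa5/Asb15, chr6:24528014-24528143: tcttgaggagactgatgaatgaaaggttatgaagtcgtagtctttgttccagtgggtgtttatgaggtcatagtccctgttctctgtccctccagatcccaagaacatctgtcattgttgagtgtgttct
Wrap53/Trp53, chr11:69580256-69580358: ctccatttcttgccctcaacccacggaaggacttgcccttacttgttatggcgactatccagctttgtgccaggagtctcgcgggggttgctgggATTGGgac

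The Pdap1/Bud31 gap held 1 SP match. The Mtrr/Fastkd3 gap held a GLI match with 1 mismatch on the minus strand, read on the plus strand as TGGGTGGCC, beside 1 SP and 1 NFY match. The Xrcc3/Zfyve21 gap held 7 NFY and 3 SP matches, and the Hspa14/Cdnf gap held 3 NFY matches and 1 ETS match. The Ndufa5/Asb15 gap held no match, and the Wrap53/Trp53 gap held 1 NFY match.

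The second set belongs to pairs with no listed summit within 1 kb of both TSSs, with capitals used in the same way. Rnf25/Stk36 is shown because Stk36, a kinase of the HH pathway, was the pathway gene found at a divergent promoter, and the other pairs are textbook divergent promoters.
Rnf25/Stk36, chr1:74601398-74601444: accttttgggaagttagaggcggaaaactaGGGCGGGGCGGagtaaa
Brca1/Nbr1, chr11:101551956-101552148: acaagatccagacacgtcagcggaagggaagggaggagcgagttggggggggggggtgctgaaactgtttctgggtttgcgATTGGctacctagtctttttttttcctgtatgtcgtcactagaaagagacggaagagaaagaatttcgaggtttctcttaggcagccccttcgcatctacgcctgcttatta
Mrps12/Sars2, chr7:28741821-28741991: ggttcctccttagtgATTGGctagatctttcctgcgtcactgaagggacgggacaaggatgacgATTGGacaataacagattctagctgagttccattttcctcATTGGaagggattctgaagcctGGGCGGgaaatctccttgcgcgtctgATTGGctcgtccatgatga
Col4a4/Col4a3, chr1:82586850-82586920: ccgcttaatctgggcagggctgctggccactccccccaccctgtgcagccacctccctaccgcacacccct

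Rnf25/Stk36 held 2 overlapping SP matches, Brca1/Nbr1 held 1 NFY match, Mrps12/Sars2 held 4 NFY matches and 1 SP match, and Col4a4/Col4a3, at collagen IV genes, held none.

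A majority of divergent promoters carried a listed GLI3 peak, and their genes had one more often than other genes. Of 734 divergent pairs on autosomes, 414 held at least 1 peak (56.4%, 52.8 to 59.9) and 244 held at least 1 peak with an FDR under 0.05 (33.2%, 29.9 to 36.7). Counted per gene with the same 1 kb window for every gene, 822 of 1448 genes in divergent pairs had a summit (56.8%, 54.2 to 59.3), against 5218 of 19359 other protein-coding genes (27.0%, 26.3 to 27.6). The difference was 29.8 percentage points (27.2 to 32.4). Genes of a pair share peaks, so this interval is too narrow, and counting plus-strand genes alone gave 29.7 points.

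Base composition moved with this difference. A ratio of observed to expected CpG of at least 0.6 within 250 bp of the TSS was found for 88.5% of genes in pairs and 47.2% of the others. Among genes above that ratio, 769 of 1282 genes in pairs (59.98%, 57.3 to 62.6) and 4506 of 9145 others (49.3%, 48.2 to 50.3) had a summit, a difference of 10.7 points. Among genes below it the shares were 31.9% (25.3 to 39.4) of 166 genes in pairs and 6.97% (6.49 to 7.48) of 10214 others. Within 5 strata of promoter GC content the mean difference, weighted by the number of genes in pairs, was 19.8 points. The genes of divergent pairs thus had a summit more often within each CpG class too, with intervals that did not overlap. The 1 kb window of a gene in a pair always takes in its partner's TSS, while the CpG ratio was read at its own TSS alone. A summit at the partner's promoter can so count for both genes. Its part in these differences, and in the one over all genes, was not tested.

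**Figure D1:**
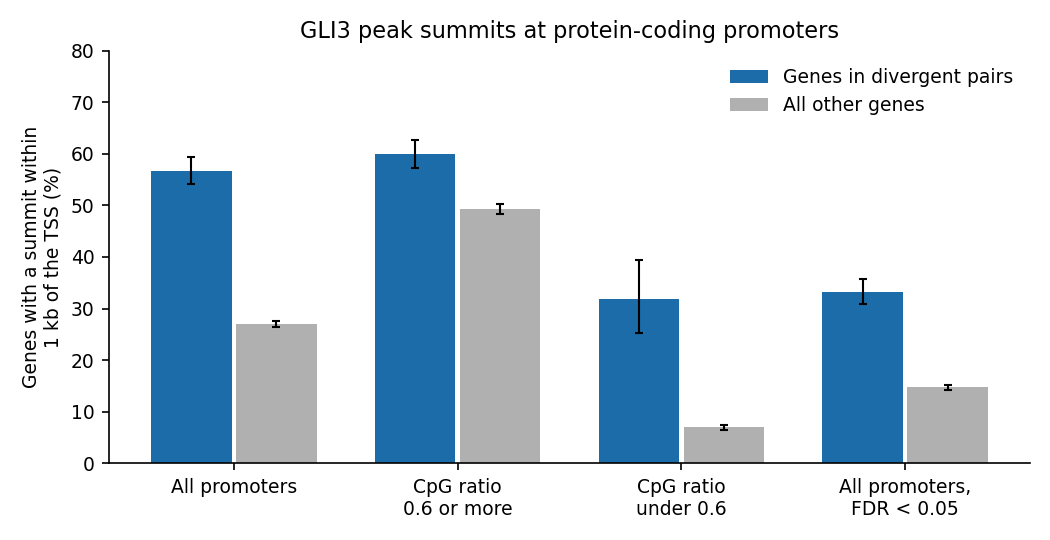
Share of protein-coding genes with a GLI3 summit within 1 kb of the TSS (y axis, percent) for genes in divergent pairs (blue) and all other genes (grey), over all promoters, by CpG ratio, and counting peaks with an FDR under 0.05 alone; bars are shares and lines are 95% Wilson intervals. Blue exceeds grey in each pair of bars, by 29.8 points over all promoters and by 10.7 points where the CpG ratio is at least 0.6.

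The peaks themselves differed little in strength from single-promoter peaks. An FDR under 0.05 was reached by 247 of 486 peaks at divergent promoters (50.8%, 46.4 to 55.2), beside 42.7% of all listed autosomal peaks. The same held for 2697 of 5811 single-promoter peaks (46.4%, 45.1 to 47.7). The difference of 4.41 points had an interval from -0.205 to 9.01, which included 0. It left 0 out under 5 alternatives, such as TSSs of all protein-coding transcripts (6.41 points, 2.54 to 10.2) and overlapping 5′ ends included (5.54 points, 1.78 to 9.28), and the difference was 1.13 points within 3 classes of peak length. Peaks with no TSS within 1 kb reached the threshold in 39.8% of 10171 cases (38.8 to 40.7), below both promoter classes.

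The largest log2 fold enrichment over input within a peak had a median of 2.33 (2.28 to 2.40) at divergent promoters and 2.27 (2.26 to 2.29) at single promoters, a difference of 0.06 (0.00687 to 0.133). The interval included 0 for TSSs at most 500 bp apart (-0.00604 to 0.129) and for summits within 500 bp of the TSSs (-0.00655 to 0.151). Within 3 classes of peak length this difference fell to -2.19e-05, and among peaks with an FDR under 0.05 both medians were 2.70. Peaks at divergent promoters had a median length of 275 bp (250 to 300) against 250 bp (250 to 250), in a list whose lengths are multiples of 50 bp. The median GC content within 250 bp of the summit was 63.4% (62.9 to 64.5) at divergent and 65.3% (64.9 to 65.5) at single promoters. Peaks at divergent promoters were thus slightly lower in GC content, by a difference of -1.90 points (-2.43 to -0.728). Across the 486 peaks, length and log2 fold enrichment moved together (Spearman's rho 0.81, Pearson's r 0.71), both being read from the same windows.

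Peaks at divergent promoters were found throughout the ranks of the list. Of the 99 autosomal peaks in the first 100 ranks 1 was at a divergent promoter (1.01%, 0.179 to 5.50) and 35 were single-promoter peaks (35.4%, 26.6 to 45.2). They made up 20 of 497 peaks over the first 500 ranks (4.02%, 2.62 to 6.13), 37 of 994 over the first 1000 (3.72%, 2.71 to 5.09) and 171 of 4945 over the first 5000 (3.46%, 2.98 to 4.005), beside 2.88% of the whole autosomal list (2.64 to 3.15). The intervals of all these shares overlapped. The highest log2 fold enrichment was 4.51 at a divergent promoter and 5.76 at a single promoter, a class with many more peaks.

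**Figure D2:**
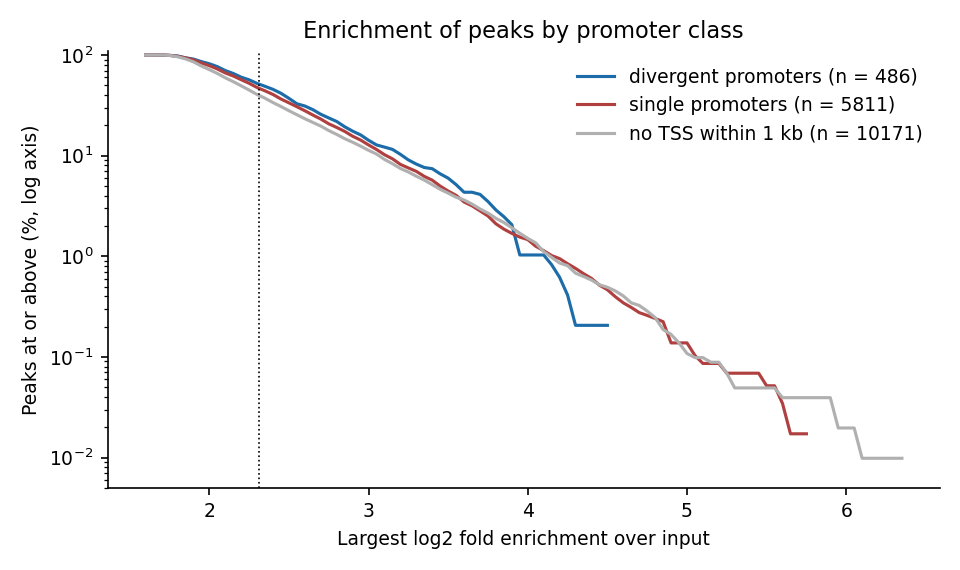
Share of peaks (y axis, percent, log scale) at or above each value of the largest log2 fold enrichment over input (x axis) for peaks at divergent promoters, at single promoters, and with no TSS within 1 kb; the dotted line marks 2.31, the lowest value of any autosomal peak with an FDR under 0.05. The curves run close together, and the divergent curve ends at 4.51.

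The 12 best-ranked peaks lay at pairs of genes with varied roles. The best, at rank 83 (chr5:145139900-145140599), covered both TSSs of Pdap1, a phosphoprotein gene, and Bud31, a gene for a spliceosome factor, with a log2 fold enrichment of 4.51 and its summit 46 bp inside Pdap1. It was followed at 4.30 (chr9:59750350-59751399) by the peak of Senp8, a protease of the NEDD8 pathway, and Myo9a, an unconventional myosin. Mtrr, which reactivates methionine synthase, and Fastkd3, a mitochondrial RNA-binding protein, shared a peak at 4.24 (chr13:68581800-68582399). Ndufa4, a subunit associated with cytochrome c oxidase, and Phf14, a PHD finger protein, shared one at 4.19 (chr6:11907350-11907949). All 12 best-ranked peaks had an FDR under 0.05.

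Further down this group, Nlgn2, a postsynaptic adhesion protein, and Tmem256 shared a long peak at 4.13. Hadha and Hadhb, the alpha and beta subunits of the mitochondrial trifunctional protein of fatty acid oxidation, shared one at 3.95. Mrto4, a ribosome assembly factor, and Emc1, of the endoplasmic reticulum membrane complex, shared one at 3.94. Alg2, a mannosyltransferase of N-glycosylation, and Sec61b, of the translocon, had 3.93, as did Xrcc3, of homologous recombination, with Zfyve21. The peak of the complex I gene Ndufa5 and Asb15 had 3.91, that of the autophagy gene Atg13 with Harbi1 3.88, and that of the chaperone gene Hspa14 with the neurotrophic factor gene Cdnf 3.87. Of the 12 peaks, 11 covered both TSSs of their pair. The exception was Ndufa5/Asb15, whose summit lay 386 bp inside Ndufa5 and whose peak reached neither TSS.

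**Figure D3:**
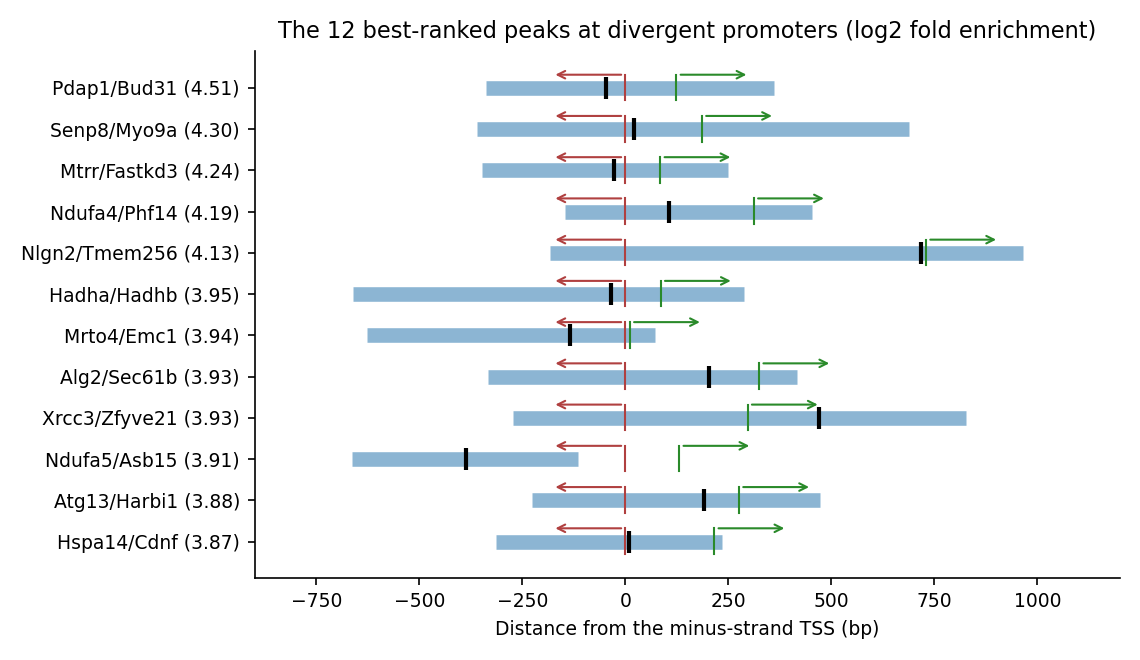
The 12 best-ranked peaks at divergent promoters, drawn to scale by distance in bp from the minus-strand TSS (x axis); blue bars are peaks, black ticks are summits, red and green arrows are the minus- and plus-strand genes, and numbers are log2 fold enrichments. Bars run across both TSSs in 11 rows, and the bar of Ndufa5/Asb15 lies inside Ndufa5.

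Summits lay near the TSSs, and most lay inside a gene rather than between the genes. Of the 486 summits, 159 fell in the gap (32.7%, 28.7 to 37.0), 159 inside the minus-strand gene and 168 inside the plus-strand gene. The gap made up 12.3% of the stretch in which the rule allowed a summit. The median distance to the nearer TSS was 89.5 bp, and 172 bp for single-promoter peaks, but the rule keeps a summit close to both TSSs and shortens this distance by itself. Of single-promoter summits, 40.8% (39.5 to 42.0) lay upstream of the TSS.

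The share of summits in the gap was higher for TSSs further apart, up to 500 bp. It was 17.1% for TSSs up to 100 bp apart, 29.0% from there up to 200 bp, 49.2% up to 300 bp, 63.0% up to 500 bp and 55.8% up to 1000 bp. The gap's share of the allowed stretch was 3.01, 7.76, 14.1, 22.4 and 53.6% in these classes. Summits thus exceeded that share in the first 4 classes, beyond their intervals, and in the widest class they did not (41.1 to 69.6% around 55.8%). That share supposes summits spread evenly over the allowed stretch, but summits gather near TSSs. At single promoters 33.1% lay within 100 bp of the TSS and 61.2% within 250 bp. A short gap between TSSs can so exceed its share without a preference for the gap, which was not tested.

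**Figure D4:**
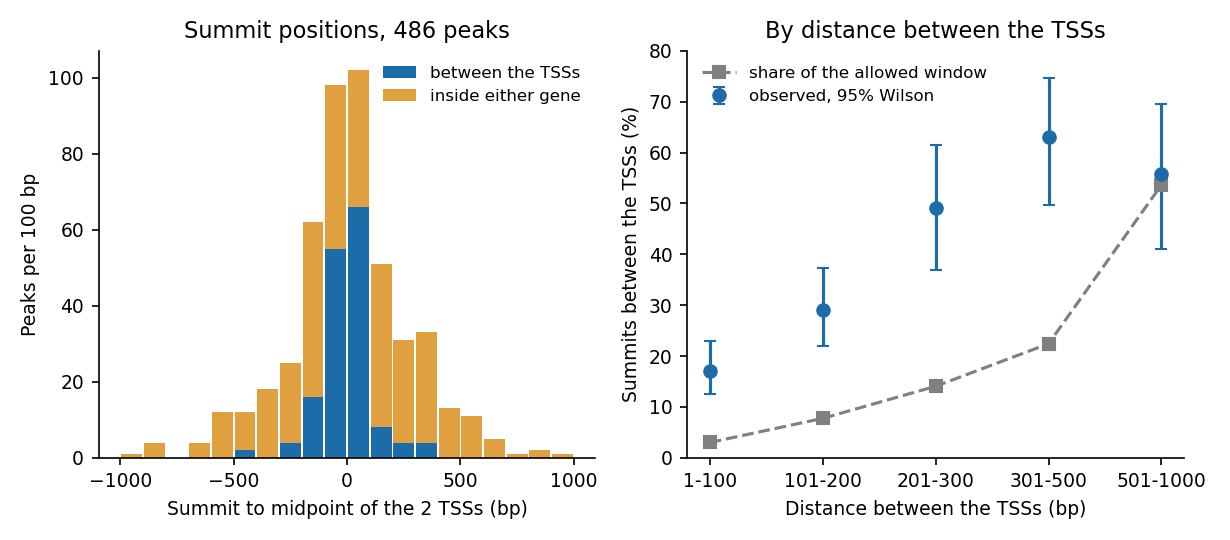
Left, number of the 486 summits per 100 bp (y axis) by distance from the midpoint of both TSSs (x axis, bp), split into summits between the TSSs (blue) and inside either gene (orange); right, percent of summits between the TSSs by TSS distance, with 95% Wilson intervals, beside the gap's share of the allowed stretch (grey). The 2 central bins are the highest, and blue points lie above grey ones up to 500 bp.

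Peaks with a summit in the gap passed the FDR threshold more often than those with a summit inside a gene. An FDR under 0.05 was reached by 94 of 159 in the gap (59.1%, 51.4 to 66.5) and 153 of 327 inside a gene (46.8%, 41.4 to 52.2), with median log2 fold enrichments of 2.47 (2.33 to 2.53) and 2.28 (2.21 to 2.34). The differences were 12.3 points (2.86 to 21.4) and 0.18 on the log2 scale (0.0347 to 0.28). Over all listed autosomal peaks 42.7% passed, which lies within the interval for summits inside a gene. By strand, 50.9% (43.2 to 58.6) passed inside the minus-strand gene and 42.9% (35.6 to 50.4) inside the plus-strand gene. The interval for the minus-strand gene overlaps that of the gap. Median lengths were 350 bp for summits in the gap and 250 bp for those inside a gene, and median distances to the nearer TSS 49 and 115 bp. The part of length or of TSS distance in the differences between gap and gene was not tested. The 173 peaks that covered both TSSs had a median of 2.70 and a length of 450 bp, and 78.0% of them had an FDR under 0.05. The 192 that covered neither TSS had a median of 2.11 and a length of 200 bp, and 29.7% of them passed.

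The share of pairs with a peak showed no steady rise or fall with the distance between the TSSs, and was highest between 300 and 500 bp. A peak was found at 174 of 306 pairs with TSSs up to 100 bp apart (56.9%, 51.3 to 62.3), 110 of 200 from there up to 200 bp (55.0%, 48.1 to 61.7) and 51 of 96 up to 300 bp (53.1%, 43.2 to 62.8). The share was 45 of 64 up to 500 bp (70.3%, 58.2 to 80.1) and 34 of 68 up to 1000 bp (50%, 38.4 to 61.6). Shares with an FDR under 0.05 lay between 29.0 and 39.1% in these classes, with overlapping intervals, and differences between the classes were not tested. Over the 486 peaks, TSS distance and log2 fold enrichment were nearly unrelated (Spearman's rho -0.05).

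Some pairs carried several peaks. There were 83 pairs with 2 or more, and the most was 4, at Hnrnpd, an RNA-binding protein gene, and 4930524J08Rik. Those 4 had log2 fold enrichments of 2.59, 2.53, 2.33 and 1.75, the first 3 with an FDR under 0.05. Sgce, of the sarcoglycan family, and Peg10, both imprinted genes, shared 3 peaks at 2.46, 2.03 and 1.88, of which the first, 16 bp inside Peg10, passed. Ddx25, a helicase gene, and Pus3, a pseudouridine synthase gene, had 3 peaks at 3.16, 2.30 and 2.17, of which the first passed and covered both TSSs. Fiz1/Gm44973 also had 3, as did Fbxo24/Lrch4, where none passed. There were 18 peaks that lay at 2 divergent pairs at once.

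Genes of HH signaling are given beside all protein-coding genes, of which 29.0% had a summit within 1 kb and 6.96% were in a divergent pair. Of 36 HH pathway genes, 20 had a summit within 1 kb (55.6%) and 1 gene, Stk36, was in a divergent pair (2.78%), and Rnf25/Stk36 held no peak. None of 21 known limb targets was in a divergent pair, and 13 had a summit within 1 kb (61.9%). These lists are short, and their difference from all genes was not tested.

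Housekeeping lists are given beside all 734 pairs, of which 56.4% held a peak and 33.2% a peak with an FDR under 0.05. Among pairs with a gene of DNA replication and repair, 23 of 34 held a peak and 12 a peak with an FDR under 0.05. Pms1 and Rpa3 each entered with a further partner gene, so their peaks are counted again in the 23. This list was led by Xrcc3/Zfyve21 (3.93), the polymerase epsilon subunit pair Pole3/4933430I17Rik (3.56) and the checkpoint gene pair Rad17/Taf9 (3.22). For the mitochondrial ribosome 12 of 18 pairs held a peak and 6 a called one, led by Lrrc46/Mrpl10 (3.47), Mrpl49/Fau (3.35) and Mrpl54/Apba3 (2.64). Chaperone and proteasome genes had 11 of 17 and 7, led by Hspa14/Cdnf (3.87), Cep76/Psmg2 (3.25) and Hsp90b1/Ttc41 (2.84). Respiratory chain genes had 10 of 22 and 5, led by Ndufa4/Phf14 (4.19) and Ndufa5/Asb15 (3.91). Aminoacyl-tRNA synthetases had 2 of 5, S100pbp/Yars (2.98) and Kars/Terf2ip (2.79), both called.

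Cilium genes, whose products HH signal transduction needs, had a peak at 4 of 12 pairs, all 4 with an FDR under 0.05. Among them were Tmtc3/Cep290 (3.31), Ift80/Smc4 (2.89) and Tnfaip1/Ift20 (2.54), with Ift80 and Ift20 encoding parts of the intraflagellar transport machinery. No peak lay at Mbd4/Ift122, Rpgrip1l/Fto or Dync2h1/Dcun1d5. Replication-dependent histone genes, transcribed in S phase, had a peak at 5 of 14 pairs and a called one at 1, Hist1h2ak/Hist1h2bn (2.53). Histone genes are near-identical copies, so reads there may be split among them. Cytosolic ribosomal protein genes had a peak at 3 of 8 pairs, Iqcg/Rpl35a (2.21), Rps28/Ndufa7 (2.16) and Rpl9/Lias (2.13), and 0 of these passed. With so few pairs per list these counts describe the lists and set none apart.

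Of 24 textbook divergent promoters, 10 met the rule by the gene records, and 5 of these held a peak, 3 of them with an FDR under 0.05, beside 56.4 and 33.2% of all divergent pairs. Among them were Wrap53/Trp53 (2.60), at the tumor suppressor p53, Mcm4/Prkdc (2.54), at a replicative helicase subunit and a DNA-dependent kinase, and Gart/Son (2.42), at a purine synthesis gene, all with an FDR under 0.05. Atm/Npat (1.82) did not reach the threshold. No peak lay at Brca1/Nbr1, Mrps12/Sars2, Col4a4/Col4a3, Pdcd10/Serpini1 or Psmb1/Tbp. In 13 others the 5′ ends of the gene records overlapped, so they fell outside the rule. Of these, 6 had a summit within 1 kb of both TSSs, and 5 an FDR under 0.05, the strongest at Ranbp1/Trmt2a (3.65) and Ppat/Paics (3.42). Evc/Evc2, a ciliary pair of HH signaling, had TSSs 1605 bp apart and no summit within 1 kb of both. Over the whole list, 282 peaks lay at overlapping 5′ ends of this kind, with 53.9% (48.1 to 59.6) under an FDR of 0.05, beside 42.7% of all listed autosomal peaks. This interval overlaps that of the peaks at divergent promoters.

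GLI motif letters were about as frequent at divergent as at single promoters. A match to GACCACCCA or its reverse complement TGGGTGGTC with at most 1 mismatch lay within 250 bp of the summit of 69 of 486 peaks (14.2%, 11.4 to 17.6) and of 15.1% of single-promoter peaks (14.2 to 16.0). The difference was -0.895 points (-3.87 to 2.61). The share was 11.99% (9.83 to 14.5) in the same length at all divergent midpoints, 11.2% (10.7 to 11.6) at all other promoters and 17.9% (17.3 to 18.5) over all listed peaks. Peaks with a match had a median log2 fold enrichment of 2.40 (2.27 to 2.53) and those without 2.32 (2.25 to 2.39), and 55.1% (43.4 to 66.2) and 50.1% (45.3 to 54.9) had an FDR under 0.05. There were 70 distinct matches, of which 23 lay within 50 bp of a summit and 9 in the gap.

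Exact matches lay within 250 bp of the summit of a called peak at 3 divergent promoters, and are shown because they carry the full consensus. An exact match also lay within 250 bp of the midpoint of 1 divergent pair without a listed peak. Park7/Tnfrsf9 and Emc3/Fancd2 were chosen after their values were seen. Capitals mark the exact match in 29 bases of the mm10 plus strand.
Nlgn2/Tmem256, chr11:69838541-69838569: ttccgcgcgtGACCACCCAcagctatggc
Nlgn2/Tmem256, chr11:69838509-69838537: gctggcttgtTGGGTGGTCagggcggtgt
Park7/Tnfrsf9, chr4:150914415-150914443: ctcgggggtgGACCACCCAgaacgcctcc
Emc3/Fancd2, chr6:113531422-113531450: cgatgggcagGACCACCCAgaggcggatg

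At Nlgn2/Tmem256 the pair of matches lay on opposite strands, 53 and 21 bp from the summit and just inside Tmem256. At Park7, a redox-sensing chaperone gene, and Tnfrsf9, a costimulatory receptor gene, the match lay 3 bp from a summit with a log2 fold enrichment of 3.69. At Emc3 and Fancd2, of the Fanconi anemia repair pathway, it lay 166 bp from a summit with 2.49. Exact matches were in 0.617% of peaks at divergent promoters (0.21 to 1.80) and 1.07% at single promoters (0.833 to 1.37). Over all listed peaks the share was higher, at 2.17% (1.96 to 2.40).

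Letters of ETS and NRF1 sites were more frequent at divergent promoters. CCGGAAG, the core of ETS factor sites, lay within 250 bp of 32.3% of summits at divergent promoters (28.3 to 36.6) and 19.4% at single promoters (18.4 to 20.4), a difference of 12.9 points (8.77 to 17.3) that was 11.96 points within 5 strata of GC content. Where the summit was within 250 bp of a TSS the shares were 35.4% (30.9 to 40.3) and 24.1% (22.7 to 25.5). GCGCATGCG, the NRF1 letters, lay around 9.05% (6.81 to 11.9) and 5.46% (4.90 to 6.07), a difference of 3.598 points (1.28 to 6.53). SP letters (80.7 and 81.2%), NFY letters (43.0 and 39.5%) and the CRE (3.50 and 2.91%), E-box (16.5 and 14.3%) and TATA letters (5.14 and 6.63%) differed by amounts whose intervals included 0. YY1 letters were at 5.97 and 4.06%, a difference of 1.91 points (0.0455 to 4.42). Where the summit was within 250 bp of a TSS, the NRF1 shares were 10.4% (7.74 to 13.8) and 7.54% (6.71 to 8.45). The YY1 shares there were 5.82% (3.91 to 8.59) and 5.31% (4.62 to 6.10). The separate intervals overlapped for both motifs. Intervals of these differences were not computed, and overlap alone does not show that a difference is absent.

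ETS letters were also more frequent at divergent promoters taken without regard to GLI3. They were at 34.1% (30.7 to 37.6) of all 734 divergent midpoints and 13.4% (12.9 to 13.8) of all other promoters, and at 37.8% (34.2 to 41.7) and 22.8% (22.0 to 23.7) where the CpG ratio was at least 0.6. Within the divergent pairs they were at 36.5% (32.0 to 41.2) of pairs with a peak and 30.9% (26.1 to 36.2) of pairs without. NRF1 letters were at 5.86% (4.38 to 7.80) of all divergent midpoints and 2.28% (2.08 to 2.50) of other promoters, and at 6.75% (5.05 to 8.97) and 4.396% (3.99 to 4.84) where the CpG ratio was at least 0.6.

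Pairs with and without a peak differed in base composition and NFY letters. The sequence within 250 bp of the midpoint had a median GC content of 63.7% (62.9 to 64.5) in the 414 pairs with a peak and 60.3% (59.5 to 61.7) in the 320 without, and CpG ratios of 0.862 (0.846 to 0.876) and 0.794 (0.768 to 0.818). TSS distances were alike, at 127.5 bp (109 to 142) and 129 bp (109 to 147). NFY letters were at 47.1% of pairs with a peak (42.3 to 51.9) and 59.7% without (54.2 to 64.9), a difference of -12.6 points (-19.7 to -5.31) that was -10.8 points within 5 strata of GC content. SP letters went the other way, at 83.1 and 71.9%, a difference of 11.2 points (5.15 to 17.3) that was 4.76 points within GC strata. NRF1 letters were at 7.73 and 3.44%, a difference of 4.29 points (0.876 to 7.63). GLI letters were at 11.6 and 12.5%, a difference of -0.906 points (-5.81 to 3.78).

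**Figure D5:**
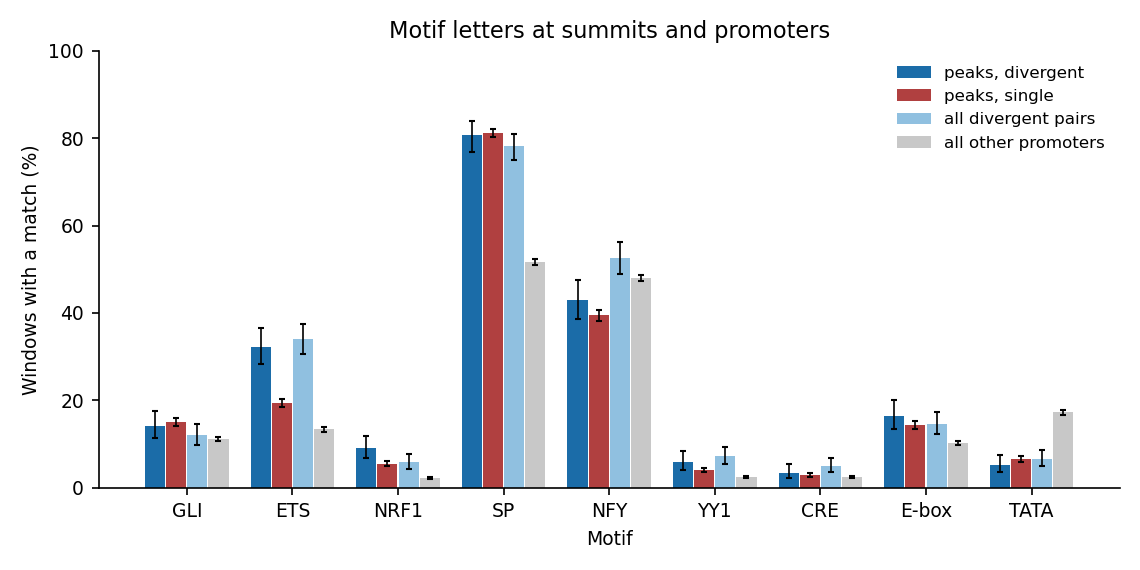
Percent of windows of 250 bp to either side with a match to each motif (y axis) around summits at divergent and single promoters, around all divergent midpoints, and around the TSS of all other promoters, with 95% Wilson intervals; GLI allows 1 mismatch and the others none. ETS is higher in both divergent groups than in the others, while GLI bars lie between 11.2 and 15.1%.

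The peaks nearest the limits of the rule are listed with their log2 fold enrichments, and the sides were not compared. The highest of them, at Haghl/Ccdc78, lay just outside. Just inside the limit on TSS distance were Smim7/Tmem38a at 967 bp (log2 fold enrichment 2.30), Mrpl41/Pnpla7 at 935 bp (1.92) and Urod/Hectd3 at 904 bp (2.56). Just outside it were Sgsm2/Tsr1 at 1011 bp (2.27 and 1.92) and Caskin2/Tsen54 at 1085 bp (2.39). Just inside the limit on the summit were Tomm6/Frs3 at 968 bp (2.35), Sart3/Iscu at 966 bp (2.78) and Fiz1/Gm44973 at 954 bp (2.204). Just outside it were Smim7/Tmem38a at 1008 bp (1.79), Zfp654/Cggbp1 at 1020 bp (2.14) and Haghl/Ccdc78 at 1043 bp (3.51).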

How the data were processed

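GLI3-FLAG ChIP-seq used 2 ChIP libraries and 1 input library. Per the submitters' processing notes, reads were aligned to mm10 with Bowtie2 2.2.5, and per the study's methods peaks were called with CisGenome from biological replicates. The 1 deposited list is attached to ChIP replicate 1 and was treated as a joint call. The deposited list gives per peak an FDR, a q-value computed by the authors, the largest log2 fold enrichment over input, a −log10 Poisson p-value (capped at 100) and the T score by which the authors ranked the peaks. The deposited lengths are multiples of 50 bp. The list runs to an FDR of 1, and an FDR under 0.05 defined called peaks. The study's methods give a lower bound on reads per library, and the exact depth is not in the list.

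The TSS was the 5′ end of each protein-coding gene record in GENCODE M21. Peak ends beyond a chromosome end numbered 0. Base composition and motifs were read from GRCm38 over 250 bp to either side of a summit, TSS or pair midpoint with samtools 1.23.1 and pysam 0.24.0, and tables were made with pandas 2.3.3. Shares have Wilson intervals, medians order-statistic intervals, and differences intervals that combine both (95%). Differences within strata were averaged with weights set by the peaks, genes or pairs of the divergent group, and for pairs by those with a peak. The functions that form pairs, class peaks, find motifs and compute intervals were tested on simulated data, and the other steps were not. No test was run, since the list has no value per library. Members, lists and motifs were chosen with earlier results of these data known. Named were the pairs of the 12 best-ranked peaks, the HH, limb and textbook pairs, the 3 best pairs of other lists, pairs with several peaks and those at the limits. A few pairs that this rule names are not reported here. Alternatives covered FDR, TSS definition, distances, strand overlap, X chromosome, overlap in place of summit, motif window, GC content and peak length.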

Additional observations from a re-analysis of the deposited data

How the results depend on the processing

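Of 93 alternatives over 8 values, 81 kept their direction, or fell to 0, and stayed within the main interval (or within 1.5 times the main count), 10 moved and 2 reversed. With an FDR under 0.05 and under 0.01 there were 247 and 169 peaks at divergent promoters, the gene share difference was 18.6 and 12.9 points, and summits in the gap made up 38.1 and 39.6%. Including overlapping 5′ ends gave 768 peaks, and TSSs of all protein-coding transcripts put 40.3% of summits in the gap. Within 5 GC strata, weighted by genes in pairs, and at a CpG ratio of at least 0.6, both chosen after seeing the data, the gene share difference was 19.8 and 10.7 points. The GLI motif difference turned to 0.00839 points in a window of 100 bp to either side, and the log2 fold enrichment difference to -2.19e-05 within 3 length classes, both close to 0. The called share difference, 4.41 points, was 1.13 within 3 length classes and 2.82 (-1.46 to 7.32) at an FDR under 0.01. Its interval left 0 out in 5 cases: 6.41 points (2.54 to 10.2) with transcript TSSs, 5.54 (1.78 to 9.28) with overlapping 5′ ends, 5.22 (0.143 to 10.1) with the best-ranked peak per promoter, 4.84 (0.261 to 9.41) with the X chromosome and 4.65 (0.0251 to 9.27) without single promoters that have a noncoding partner.

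The log2 fold enrichment difference, 0.06, was 0.00704 (-0.0552 to 0.101) at an FDR under 0.05 and 0.0075 (-0.0644 to 0.104) at an FDR under 0.01, and its interval also included 0 with summits within 250 bp of the nearest TSS (-0.0188 to 0.141), chosen after seeing the data. No paired analysis was possible because values per library are not given, and no replicate was left out for the same reason. The exact depth is not in the list, and a pair without a listed peak is not shown to lack GLI3.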
